A study of Mus musculus with 12 samples.

Results

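Chromosome 12 was followed through 12 mouse liver tumors by array-based comparative genomic hybridization (aCGH), which measures, probe by probe, how much DNA of a locus a tumor holds relative to non-tumor tissue. The chromosome was chosen from earlier results of these arrays, and its members were all probes on it that start above position 15000000. Positions refer to build NCBI36 (mm8), as in the deposited arrays. The rule took 1354 of the 42404 probes of the array, and 1310 to 1353 of them were measured in each tumor. The stretch ran from 15809996 to 119905084. Its probes lay a median of 25.9 kb apart, and 1141 of them carried 641 gene names in the files. The widest stretches without a probe were 17666595 to 25136115, 92301460 to 95992124 and 62783451 to 65824755.

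All mice, the reference livers included, were Mdr2/KO animals of the FVB strain. They lack Mdr2 (Abcb4), the phospholipid transporter of the bile canaliculus, and develop chronic liver inflammation and then hepatocellular carcinoma. The knockout is present in every cell of the mouse, so no array has a wild-type reference. The 6 post-PHx tumors (PHx1M, PHx2F, PHx3M, PHx4M, PHx5M and PHx6F) came from 4 males and 2 females that had undergone 70% partial hepatectomy at 3 or 6 months and were sacrificed at 9 months. The 6 spontaneous tumors came from untreated mice, from males aged 14 months (Spon1M and Spon2M) and females aged 13 months (Spon3F, Spon4F, Spon5F and Spon6F). Operation and age at sacrifice thus cannot be told apart. The letter M or F in a name is the sex. Each tumor had 1 array, on which its DNA (red) was hybridized with DNA from liver tissue far from any tumor (green) in the same animal, with no dye swap and no second array. The first 4 tumors of each group, by number, shared a slide (slide 1 for post-PHx, slide 3 for spontaneous), and the tumors numbered 5 and 6 of both groups were together on slide 2.

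Values are log2 ratios of tumor over liver, centred on the median of the autosomal probes of the array, so that 0 is the level of the middle of the genome. A level of a tumor is a mix of its cells and of any other cells in the piece. A change in few cells and a smaller change in all cells cannot be told apart, nor can numbers of copies be read from it. The spread of the ratios between neighbouring probes was 0.155 to 0.187 on the post-PHx arrays and 0.147 to 0.265 on the spontaneous ones, and it was widest in Spon2M. The median spot on the chromosome had 3.31 to 7.26 times the background signal in the red channel of post-PHx arrays. For spontaneous arrays this factor was 4.49 to 11.5. In the green channel it had 3.92 to 12.2 and 9.03 to 12.9 times the background.

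Mouse chromosomes have their centromere at the start of the coordinates. A tumor can gain or lose a chromosome whole, when it is missegregated at mitosis, or in part, when it breaks, and a short stretch can be multiplied as an amplicon. Chromosome 12 of the mouse carries several genes of liver biology, among them the serpin cluster of secreted protease inhibitors, the bile acid uptake transporter Slc10a1 and the pioneer transcription factor Foxa1. Towards its end lies the imprinted Dlk1-Dio3 domain, whose long non-coding RNAs and microRNAs (miRNAs) are read from the maternal copy, and near the very end the immunoglobulin heavy chain genes, which B cells rearrange.

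The files hold no probe sequences, so the sequences shown are those of mature miRNAs from RefSeq (GRCm38.p6), which mark the far edge of the largest loss described below. Of the 92 miRNA genes of the RefSeq table on the chromosome, 15 lay between probed genes that were both lost in Spon5F, and 58 lay between Dlk1 and Dio3, beyond the edge. Their order relative to the probed genes was taken from the same table, in which 434 gene names of the files were found. Capitals mark the seed, bases 2 to 8 counted from the 5′ end, and all 6 seeds differ. The first pair lies inside the loss, miR-342 between Evl and Degs2 and miR-345 between Slc25a29 and AI132487. The other 4 lie beyond it, between Rtl1 and Dio3.
miR-342-3p: uCUCACACagaaaucgcacccgu
miR-345-5p: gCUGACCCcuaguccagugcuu
miR-127-3p: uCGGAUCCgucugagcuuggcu
miR-136-5p: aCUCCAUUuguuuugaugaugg
miR-379-5p: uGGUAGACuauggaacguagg
miR-411-5p: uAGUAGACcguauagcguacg

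Of the 6 spontaneous tumors, 4 were shifted over much of chromosome 12, and none of the post-PHx tumors was. The median log2 ratio of the chromosome was 0.32 in Spon1M, 0.28 in Spon2M and 0.36 in Spon4F, which are 1.25, 1.21 and 1.29 times the level of the liver. It was -0.34 in Spon5F, 0.791 times that level. The medians of the other spontaneous tumors were -0.03 in Spon3F and -0.04 in Spon6F. Among post-PHx tumors PHx5M had the highest median at 0.02, PHx1M had 0.00011, PHx2F and PHx6F both had -0.01, and PHx3M and PHx4M both had -0.02. The mean of the medians was -0.0059 ± 0.0132 (SD, n = 6) in post-PHx tumors and 0.0942 ± 0.274 (SD, n = 6) in spontaneous ones. The spontaneous group thus held 3 tumors above every post-PHx tumor and Spon5F far below every one of them. Spon3F and Spon6F were also below every post-PHx tumor, but close to them, and with no centring they were not below all of them. The chromosome was chosen from these ratios, so the levels are a description and no test was run on these medians.

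Beside the other autosomes of the same array, the whole of chromosome 12 had the highest median of the 19 autosomes in Spon1M and in Spon4F and the next to highest in Spon2M, behind chromosome 1 at 0.28. In Spon5F it had the next to lowest, above chromosome 14 at -0.47. In the other 8 tumors it ranked between 11 and 16 from the top. The probes at or below position 15000000, which the rule left out, had a median of 0.55 in Spon1M, 0.22 in Spon2M, 0.35 in Spon4F and -0.05 in Spon5F. Just outside the bound, the last probe at 14377441 had 0.65 in Spon1M and 0.12 in PHx3M, and just inside it the first probe at 15809996 had 0.42 and 0.75.

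**Figure D1:**
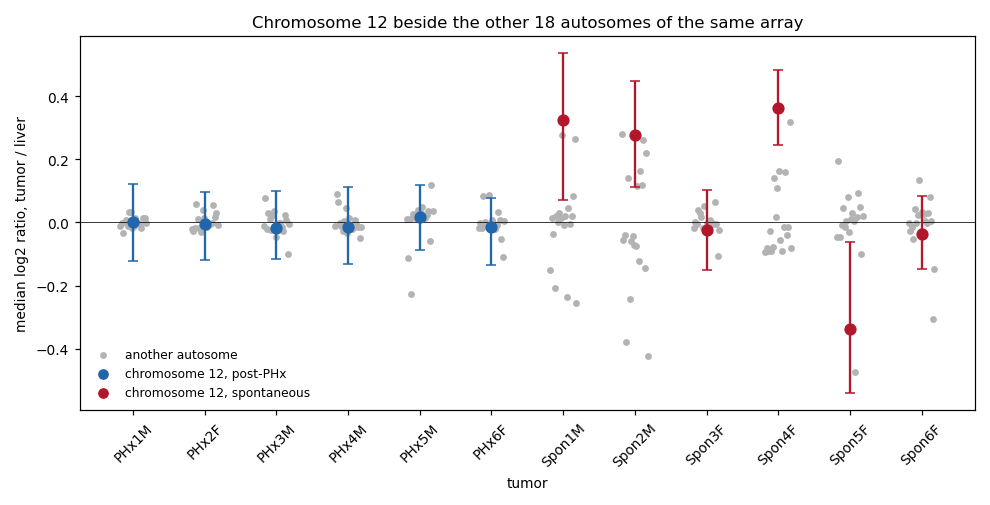
Median log2 ratio of tumor over liver of chromosome 12 (large points, bars from the lower to the upper quartile of its probes) beside the medians of the other 18 autosomes of the same array (small grey points), for each tumor on the x axis, blue for post-PHx and red for spontaneous. Chromosome 12 stands at 0.32, 0.28 and 0.36 in Spon1M, Spon2M and Spon4F and at -0.34 in Spon5F, and within 0.04 of 0 elsewhere.

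To call regions, each interval was scored by its mean ratio weighted by the probes' errors, as ADM-2 does, and kept at a score of 6 or more, with at least 2 probes and a mean log2 ratio of at least 0.4 in size, the filter of the study's methods. A gain was called in 1 of 6 post-PHx tumors (PHx3M) and in 1 of 6 spontaneous tumors (Spon1M). A loss was called in 0 of 6 post-PHx tumors and in 2 of 6 spontaneous tumors, the long one of Spon5F and 1 of 2 probes in Spon3F. With the filter lowered to 0.25, gains were called in 3 of 6 spontaneous tumors, since Spon2M and Spon4F were added. The members in a called gain at 0.4 were 23 of 1310 in PHx3M (1.76%), where 3.4% of all probes of that array were in a called gain. In Spon1M they were 612 of 1349 (45.4%), against 7.07% of all its probes. In Spon5F 802 of 1349 members (59.5%) were in a called loss, against 5.7% of all probes. In Spon3F it was 2 of 1344 members (0.149%), against 1.72%. At the filter of 0.25 the gains held 1311 of 1353 members in Spon2M (96.9%) and 1350 of 1350 in Spon4F (100%), against 13% and 6.41% of all probes of these arrays, and in Spon1M 68.5% of members against 9.74% of all probes. Nothing is read from these shares, because the chromosome was chosen for them.

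**Figure D2:**
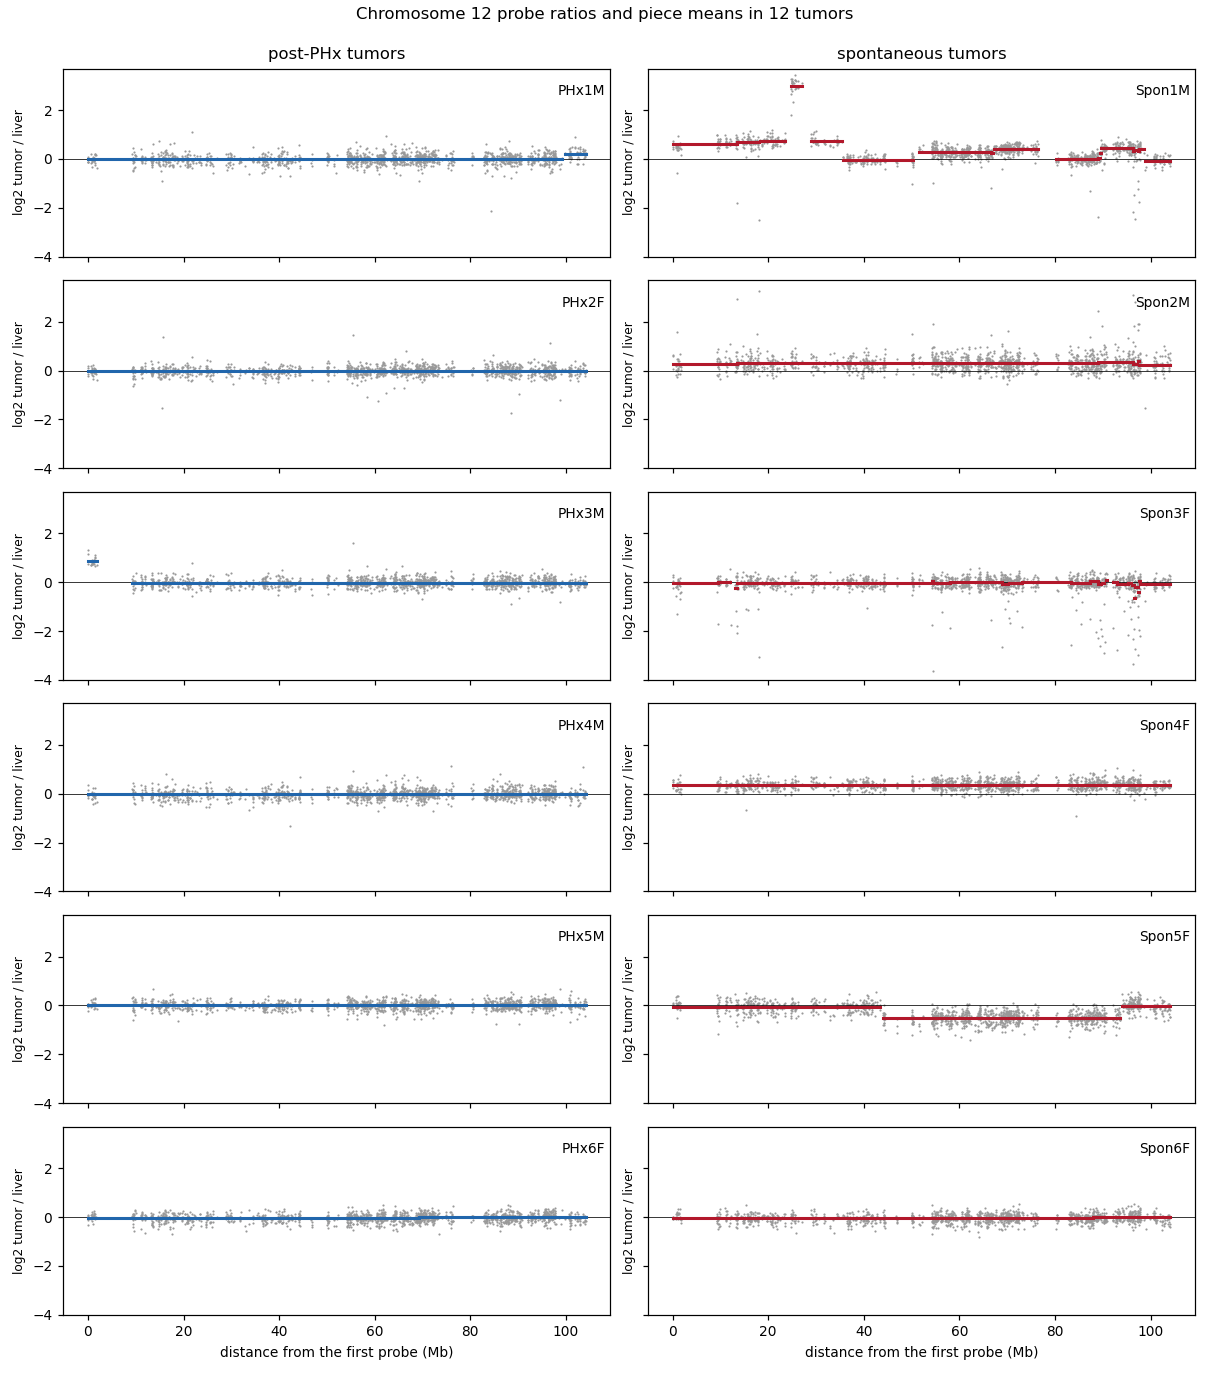
Log2 ratio of tumor over liver (y axis) of each probe of chromosome 12 (grey points) against its distance from the first probe (x axis, Mb) in the 12 tumors, with the mean of each piece of at least 5 probes as a coloured line. Spon2M and Spon4F are raised from end to end, Spon1M in steps with a peak at 3.00, Spon5F is lowered over its middle, and PHx3M is raised at the start.

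The 4 shifted tumors had 3 different shapes. In Spon4F the shift was even. Its ratio lay above 0 for 97.8% of the probes, and the medians of 20 stretches of 5 Mb ran from 0.27 to 0.43 with an SD of 0.041. The whole chromosome, from 3238250 to 119905084, formed 1 piece of 1500 probes with a mean of 0.36. Spon2M was about as even, with stretch medians from 0.18 to 0.39 and an SD of 0.0478. At the filter of 0.25 its gain was called in 2 runs, from 3264700 to 112120774 and from 113356495 to 119905084. The inner edge of each run is a single probe shifted on slide 3 (described below), at 3.10 and 1.90 in Spon2M. The same SD was 0.0308 in Spon6F and 0.0317 in PHx2F, where no region was called, 0.682 in Spon1M and 0.245 in Spon5F. The gains of Spon2M and Spon4F thus varied along the chromosome about as little as unshifted chromosomes did, while the gain of Spon1M and the loss of Spon5F were segmental. Spon2M also had the noisiest array.

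Spon1M was gained in steps, and within the gain lay an amplicon. The called gain with the most evidence ran from 3375815 to 51158663 and held 416 probes with a mean of 0.77, from Kif3c (a kinesin motor subunit) to AK014151. The means of its pieces rose towards the amplicon. They were 0.41 up to 8564268, 0.62 up to 29209288, 0.67 up to 33835131 and 0.75 up to 39403214. The breaks after 29209288 and 33835131 lie at single probes of Rps7 (-1.82) and Atxn7l1 (-2.49). Both probes were shifted on slide 3, as described below, and Spon2M was parted at the same places. These breaks thus coincide with shifted spots, and the pieces beside them differ little. The amplicon followed, from 40515930 to 42836201, with 28 probes and a mean of 3.00 ± 0.32 (SD over probes), which is 8.01 times the liver level. Behind it the level was 0.73 from 44681057 to 51158663. From 51427172 to 66147084 it was -0.03, so the long gain ended between AK014151 and Prkcm (protein kinase D1).

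The amplicon held 11 gene names. BC003725, the first, stood at 2.87, Arl4a (an ARF-like GTPase) at 2.66, Scin (scinderin, which severs actin filaments) at 2.68, Gm889 at 3.09 and Ifrd1 (a transcriptional co-regulator) at 3.13. Zfp277 (a zinc finger protein) stood at 2.72, Dock4 (an exchange factor for Rac) at 2.99 and Immp2l (a subunit of the mitochondrial inner membrane peptidase) at 3.00. The highest probe, at 41410841, carries no gene name and had 3.42. The nearest genes outside were Etv1 (an ETS family transcription factor) at 0.94 and Dgkb (a diacylglycerol kinase) at 0.74 on one side and AY512922 at 0.76 on the other. Over the 28 probes the other 11 tumors had medians between -0.09 in Spon5F and 0.38 in Spon4F. Dock4 was at 0.10, -0.18, -0.16, -0.47, -0.02 and -0.12 in PHx1M to PHx6F and at 0.24, -0.01, 0.23, -0.06 and -0.09 in Spon2M to Spon6F. No other tumor came near Spon1M there, and the highest of them were the tumors gained along the whole chromosome.

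Beyond the gap at 66 Mb, Spon1M went up and down again. Its level was 0.26 from 67314702 to 82390508, under the filter, and 0.42 from 82999237 to 92215634, a called gain of 202 probes that ends in Sel1l (an adaptor of endoplasmic reticulum degradation). It returned to -0.0031 from 95992124 to 104811636, the stretch from Flrt2 to Serpina3n that holds the serpin cluster. A called gain of 122 probes with a mean of 0.43 followed from 105357836 to 112103477, up to the kinase gene Mark3. The last called gain, from 113371848 to 114361518, had 18 probes and a mean of 0.41, and the pieces between it and the one before stood at 0.33, 0.36 and 0.34, under the filter. Single probes shifted on slide 3 (described below) lie at breaks between these pieces and gains. Among them were the probe at 112120715 (-2.16) and those of AK129315 (-2.44) and Jag2 (-1.75). From 114528141 to the end, 52 probes had a mean of -0.07. The gains were thus interrupted by 2 long stretches at the level of the autosomes, and a further one closed the chromosome.

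Spon5F had lost the middle of the chromosome. The loss ran from 59864966 to 109468692 without a break, 49.6 Mb with 802 probes, and its mean was -0.50 ± 0.24 (SD over probes), which is 0.705 times the liver level. It began at AK044681 and Sec23a (a coat protein of vesicles leaving the endoplasmic reticulum), the latter at -0.59. Before it lay Foxa1 at 0.13, Sstr1 (a somatostatin receptor) at -0.07 and Clec14a at 0.24. It ended after Wars (tryptophanyl-tRNA synthetase) at -0.41 and AK147993 at -0.61. On the far side the first probe, at 109889991, had 0.02. Dlk1 stood at 0.47 there, but its 1 probe was above 0 in every tumor. The lowest probe, at 78062794 and with no gene name, had -1.41. The members before the loss had a median of -0.03 and those after it of -0.0026 in this tumor. Over the 805 probes of this stretch measured on any array, the medians of the 6 post-PHx tumors, Spon3F and Spon6F lay between -0.04 and 0.02. Those of Spon1M, Spon2M and Spon4F were 0.26, 0.28 and 0.37.

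PHx3M carried the one called region among post-PHx tumors, at the start of the members. It ran from 15809996 to 17666595, held 23 probes with a mean of 0.86 ± 0.16 (SD over probes), 1.82 times the liver level, and ended at the edge of the widest stretch without probes. The probe before it, at 14377441, had 0.12 and the probe after it, at 25136115 in Taf1b, had 0.14. Trib2, a Tribbles pseudokinase, held the highest probe at 1.32 and had a mean of 1.23. Lpin1 (a phosphatidate phosphatase of lipid synthesis) was at 0.74, Greb1 (induced by estrogen) at 0.84, E2f6 (a repressor of the E2F family) at 0.82, Rock2 (a kinase that regulates the actin cytoskeleton) at 0.91 and Pdia6 (a protein disulfide isomerase) at 1.04. Atp6v1c2, a proton pump subunit, was the last named gene measured there. Over these 23 probes the other post-PHx tumors had medians from -0.08 to 0.04 and the 3 tumors with a gained chromosome had 0.49 in Spon1M, 0.18 in Spon2M and 0.33 in Spon4F. PHx3M thus lay above all other tumors in this stretch and at the level of the autosomes in the rest of the chromosome, where its 1287 probes from Taf1b on had a mean of -0.01.

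**Figure D3:**
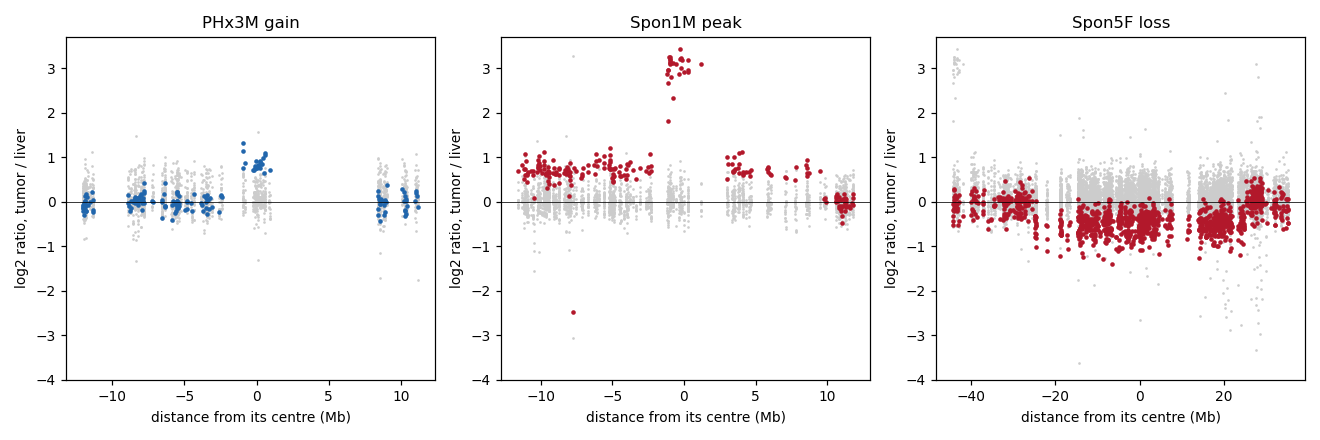
Log2 ratio of tumor over liver (y axis) against the distance from the centre of the region (x axis, Mb) for the PHx3M gain, the Spon1M amplicon and the Spon5F loss; coloured points are probes of the named tumor and grey points those of the other 11. The amplicon stands at 3.00 between shoulders of 0.75 and 0.73, the gain at 0.86 and the loss at -0.50.

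Spon3F had the 2-probe loss, from 112118155 to 112120774 at Ckb (brain-type creatine kinase), with a mean of -2.83. One of its probes was among 12 that were shifted on 3 arrays of slide 3, and without these 12 no loss was called in Spon3F, leaving Spon5F alone. In PHx1M the last 50 probes, from 115704598 to 119905084, had a mean of 0.21, under both filters. Vipr2 (a receptor of vasoactive intestinal peptide) was at 0.22 there, Ptprn2 at 0.49 and Itgb8 (an integrin subunit) at 0.21. Over these probes the other post-PHx tumors had medians from -0.08 to 0.0054, below PHx1M, while Spon2M and Spon4F were at 0.22 and 0.31.

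A shift of the ratio can come from either DNA of the array, so each channel was looked at alone. Its signal was centred on the autosomes of the array and set against the probe's median in that channel over all 12 arrays, the tumor's own included. In every large region the shift was in the tumor channel. In the amplicon of Spon1M the red signal lay 2.89 above that median on the log2 scale, while the green signal lay at -0.15. In the other regions the green signal of the tumor's own array was between -0.05 and 0.01. In the loss of Spon5F the red signal was at -0.48 and the green at 0.0077. Over all members it was at 0.21 and 0.0079 in Spon2M and at 0.29 and -0.0072 in Spon4F, and in the gain of PHx3M at 0.67 and -0.05. The green signal of the amplicon lay below the range of the other arrays, -0.02 to 0.05. Over all called gains of Spon1M, the amplicon included, it was -0.03, also below the others at -0.01 to 0.03. What caused either was not tested.

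**Figure D4:**
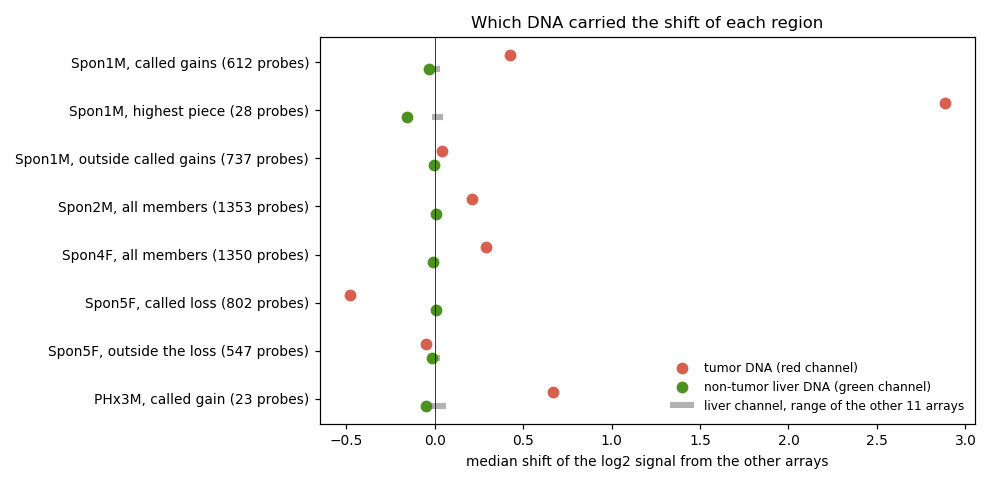
Median shift of the log2 signal of the red channel (tumor DNA) and the green channel (non-tumor liver DNA) from the probe's median over all 12 arrays (x axis) over each region (y axis), with the range of the green channel on the other 11 arrays in grey. The red points carry the shifts, from -0.48 in the loss of Spon5F to 2.89 in the amplicon of Spon1M, and the green points stay between -0.15 and 0.01.

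A list of hepatocyte and metabolic genes, not all of them particular to hepatocytes, lay mostly inside the loss of Spon5F. Of 34 listed genes, 25 were found among the members, and 23 of them were in the loss, beside 371 of all 641 named genes. The serpins and the Acot genes of the list lie in clusters that a long loss takes together. The list was also chosen with earlier results known, so nothing is read from this share. In Spon1M 9 of the 25 were in a gain (296 of 641) and in PHx3M 1 was (12 of 641). Their median was -0.43 in Spon5F, beside -0.35 for all named genes. In Spon1M it was 0.23 beside 0.32, in Spon2M 0.18 beside 0.29 and in Spon4F 0.39 beside 0.36. Lpin1 was at 0.50 in Spon1M and 0.28 in Spon5F, before the loss. Pygl, the liver glycogen phosphorylase, was at -0.41 in Spon5F, 0.30 in Spon1M, 0.35 in Spon2M and 0.39 in Spon4F, and between -0.03 and 0.13 in the post-PHx tumors. Dhrs7, a short-chain dehydrogenase, was at -0.71 in Spon5F and Gpx2, a glutathione peroxidase, at -0.46. Slc10a1, the bile acid transporter, was at -0.63 in Spon5F, and at 0.08, -0.01, 0.01, 0.13, -0.17 and -0.12 in PHx1M to PHx6F. The 7 serpins found lay in none of the called gains of Spon1M and ranged there from -0.16 for Serpina11 to 0.23 for Serpina3c. In Spon5F they ranged from -0.56 for Serpina12 to -0.07 for Serpina10. Serpina6, which encodes corticosteroid-binding globulin, was at 0.03 in Spon1M, -0.37 in Spon5F and 0.46 in Spon4F. Of the genes found, Foxa1 and Lpin1 alone lay outside the loss.

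Growth, stress and cell cycle regulators were spread over the chromosome. Of 35 listed, 30 were found. In a gain of Spon1M were 17 of the 30, beside 296 of all 641 named genes, and in the loss of Spon5F 16 of the 30, beside 371 of 641. Their medians were 0.35 in Spon1M, 0.33 in Spon2M, 0.36 in Spon4F and -0.36 in Spon5F, beside 0.32, 0.29, 0.36 and -0.35 for all named genes. Jag2 was counted in a gain of Spon1M, yet its mean there was -0.68. Its probe at 113356495, before that gain, stood at -1.75 and was shifted on slide 3 (described below). Odc1, which makes polyamines, was at 0.41 in Spon1M and was not measured in PHx3M, whose gain spans it. Rrm2, a subunit of ribonucleotide reductase, was at 0.48 in Spon1M, 0.50 in Spon2M and 0.35 in Spon4F. Its 1 probe was also at -0.43 in Spon5F, outside the loss, and at -0.50 in Spon6F. Sox11 and Twist1, both developmental transcription factors, were at 0.72 and 0.62 in Spon1M. Among those in the loss of Spon5F, Hif1a (the oxygen-regulated transcription factor) was at -0.91, Max (the partner of Myc) at -0.51, Fos at -0.40 and Dicer1 (which processes miRNAs) at -0.38. Hif1a was at 0.15 in Spon1M, 0.49 in Spon2M and 0.44 in Spon4F, and between -0.22 and -0.03 in the post-PHx tumors. Mlh3, Fos, Jdp2, Batf, Tgfb3, Ccnk and Yy1 lay in a gain of Spon1M and in the loss of Spon5F, so these 7 genes were higher in one tumor and lower in the other.

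Of the 10 listed neurodevelopmental and large genes, 9 were found, with 3 in a gain of Spon1M (296 of all 641 named genes) and 5 in the loss of Spon5F (371 of 641). Dgkb and Immp2l stood at 0.74 and 3.00 in Spon1M. Lrfn5, a synaptic adhesion protein, was at -0.54 and Mdga2, a neuronal cell surface protein, at -0.79 in Spon5F. Their medians were 0.13 in Spon1M, 0.33 in Spon2M, 0.34 in Spon4F and -0.47 in Spon5F, beside 0.32, 0.29, 0.36 and -0.35 over all named genes. Nkx2-1 and Pax9, the neighbours of Foxa1, were at -0.05 and -0.10 in Spon5F.

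The imprinted domain from Dlk1 to Dio3 lay outside the loss of Spon5F and inside a gain of Spon1M. Of 10 listed genes of the domain and its neighbours, 5 were found. All 5 were in a gain of Spon1M, beside 296 of all 641 named genes, and 2 of the 5, Bcl11b and Wars, were in the loss of Spon5F, beside 371 of 641. Bcl11b (a zinc finger transcription factor) and Wars, before the domain, were at -0.44 and -0.41 in Spon5F. Dlk1, a non-canonical Notch ligand, and Rtl1, a retrotransposon-like gene, were at 0.47 and -0.05 in Spon5F and at 0.68 and 0.59 in Spon1M. Dio3, the deiodinase that inactivates thyroid hormone, was at -0.12 and 0.36. Dlk1 has 1 probe, and it was above 0 in all 12 tumors, from 0.04 in PHx4M to 0.69 in Spon4F. Over the 11 probes from Dlk1 to Dio3 the median was 0.04 in Spon5F, between 0.01 and 0.16 in the post-PHx tumors and 0.42, 0.33 and 0.49 in Spon1M, Spon2M and Spon4F. The 4 miRNAs of this domain printed above thus lie in a stretch close to 0 in Spon5F, and miR-342 and miR-345 between genes at -0.38 (Evl), -0.28 (Degs2), -0.56 (Slc25a29) and -0.55 (AI132487).

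The files hold 0 gene names that begin with Igh, and all 216 such symbols of the RefSeq table lie between Tmem121 and Zfp386. In that interval 9 probes had medians of -0.03 in Spon1M, 0.22 in Spon2M, -0.10 in Spon3F, 0.27 in Spon4F, -0.05 in Spon5F and -0.07 in Spon6F, and -0.10 to 0.07 in the post-PHx tumors. Within the interval the levels were uneven. The 1 Mb bin from 114000001, which lies in it, was at -0.29, -0.45, -0.37, -0.02, 0.13 and -0.10 in PHx1M to PHx6F. It was at -0.19, -0.24, -0.38, 0.0040, -0.18 and -0.22 in Spon1M to Spon6F. A part of B cells in these values was not tested.

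**Figure D5:**
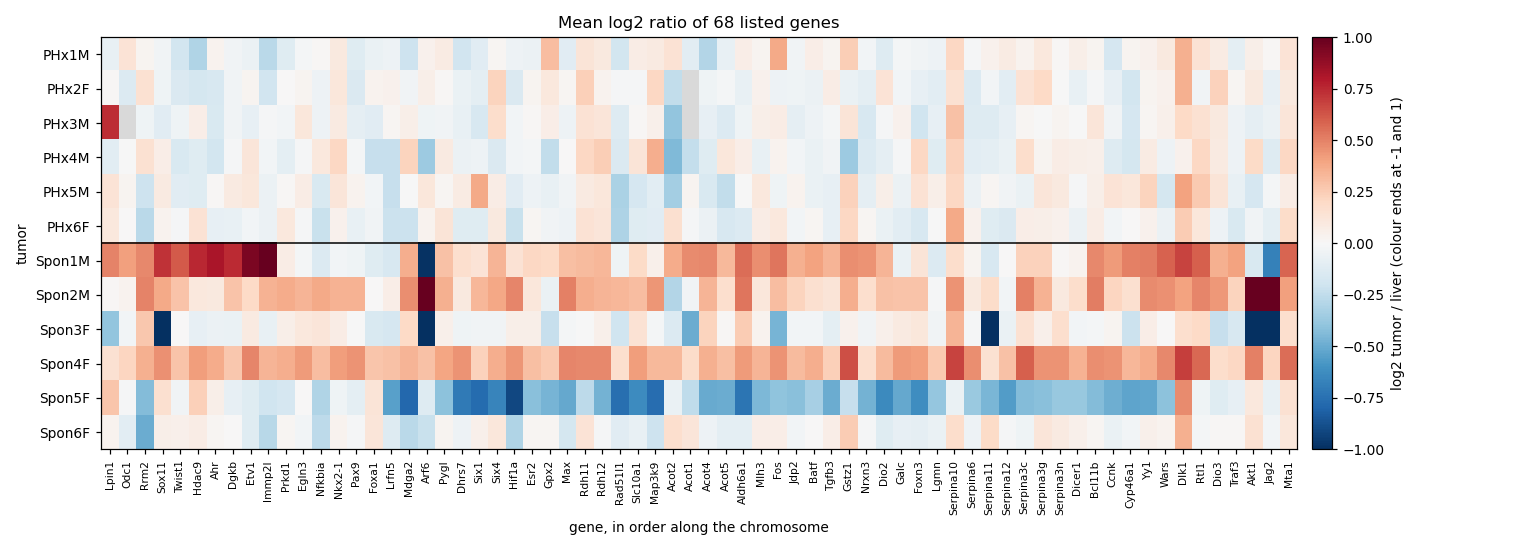
Mean log2 ratio of tumor over liver (colour, ending at -1 and 1) of the 68 listed genes found on the array, in order along the chromosome (x axis), in each tumor (y axis, post-PHx above the line); grey cells were not measured. Spon4F is red throughout, Spon5F is blue from Lrfn5 to Wars, with exceptions near 0, and the dark cells at Arf6, Akt1 and Jag2 hold probes that were shifted on slide 3.

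Between the groups, no bin of the chromosome passed the threshold. Mean ratios in 1 Mb bins with at least 3 probes were compared between the 6 post-PHx and 6 spontaneous tumors with limma, with Benjamini-Hochberg adjustment over 2137 bins. Of all bins 0 passed an adjusted p of 0.05 (0%), and so did 0 of the 81 bins of chromosome 12. At an unadjusted p under 0.05 there were 120 bins of all (5.62%) and 5 of the 81, which were all lower in post-PHx tumors. With no centring there were 118 bins of all 2137 and 10 of the 81, of which 10 were lower in post-PHx tumors. With centring on the mode there were 136 of all 2137 and 1 of the 81, also lower in post-PHx tumors. With 5 Mb bins there were 27 of all 530 and 0 of the 20 of chromosome 12. With slide as a block there were 32 bins of all 2137 and 2 of the 81, of which 0 were lower in post-PHx tumors, and the median difference over the 81 bins (post-PHx minus spontaneous) was 0.19 in place of -0.09. Only slide 2 held both groups, so in that fit the difference rests on PHx5M and PHx6F against Spon5F and Spon6F. With sex in the model there were 259 bins of all 2137 and 22 of the 81, of which 22 were lower in post-PHx tumors. The bin from 31000001 holds Tmem18, Acp1 and Sh3yl1, that from 34000001 Ferd3l, Twist1 and Hdac9 and that from 51000001 Prkcm, and the one from 47000001 holds no named gene. The 12 tumors are single samples, and the p-values set the difference between the groups against the spread between tumors within them. The chromosome was chosen from these same ratios, so the counts are a description and nothing is read from them. The adjusted count was 0 in each of 22 alternative fits. The unadjusted count was 31 of 81 without Spon5F (169 of all 2137 bins), 15 without Spon3F (142 of 2137), 12 without Spon6F (141 of 2137) and 1 to 3 without any one of the other tumors (86 to 133 of 2137).

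In post-PHx tumors the highest bins began at 15, 17 and 16 Mb, with means of 0.14 ± 0.43, 0.13 ± 0.37 and 0.12 ± 0.34 (SD, n = 6), the gain of PHx3M. In spontaneous tumors they began at 41, 40 and 35 Mb, with means of 0.61 ± 1.24, 0.61 ± 1.16 and 0.27 ± 0.35 (SD, n = 6). The first pair lies in the amplicon of Spon1M. The bin from 35 Mb, which holds Snx13, was raised in 3 tumors, at 0.87 in Spon1M, 0.32 in Spon2M and 0.41 in Spon4F. The lowest bins of the groups were in part the same. The bin from 114 Mb, in the interval of the immunoglobulin genes, was lowest in both, at -0.18 ± 0.22 in post-PHx and -0.20 ± 0.12 in spontaneous tumors, and that from 62 Mb (Lrfn5) came next, at -0.13 ± 0.08 and -0.11 ± 0.37 (SD, n = 6). The third in post-PHx tumors was the bin from 54 Mb (Akap6 and Npas3), at -0.11 ± 0.03 (SD, n = 6).

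The difference of the group means of the chromosome medians was -0.10 (post-PHx minus spontaneous), smaller than the SD of the spontaneous tumors. Within males it was -0.30, with 4 post-PHx tumors against Spon1M and Spon2M, both of which were gained. Within females it was -0.0011, with 2 post-PHx tumors against 4 spontaneous ones, of which Spon4F at 0.36 and Spon5F at -0.34 offset each other. On slide 2, the one slide with both groups, it was 0.19, because Spon5F and Spon6F are the spontaneous tumors there; the sign was turned. Of the 4 shifted tumors 3 lay on slide 3, with all gains of the spontaneous group, and slide 3 held no post-PHx tumor. Slide and group can therefore not be told apart for these gains. The difference was -0.05 without Spon1M, -0.06 without Spon2M, -0.05 without Spon4F and -0.19 without Spon5F.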

How the data were processed

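The 12 arrays each carried the DNA of 1 tumor (Cy5) and of its host's liver away from the tumor (Cy3). The tumors and their groups were taken from the labels and the ages from the methods of the study, in which well differentiated tumors made up mostly of tumor cells were chosen. The authors deposited Feature Extraction 10.5.1.1 files. The intensities deposited for both channels are background-subtracted and dye-normalized, and the deposited log10 ratios and their errors are those of the red over the green signal. Control spots and outlier spots (3 to 47 per array on the chromosome) were dropped. Ratios were converted to log2, repeated spots were reduced to their mean, and the autosomal median of the array was subtracted.

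The caller was run on each tumor alone, and called runs of the same sign parted by at most 2 probes were joined, a rule set after values had been seen. The authors' own calls were not used. Bins were fitted with limma 3.58.1 in R 4.3.3, and the caller ran in Python 3.11.15 (numpy 2.4.6, numba 0.67.0, pandas 2.3.3). The caller and the fit were tested on simulated data. The bins simulated for the fit had a smaller spread than the bins of chromosome 12 had in spontaneous tumors. That test therefore does not show what the fit could detect in these tumors. The samples are single animals, 1 array each, and no counts underlie the values, so the number of arrays limits the precision.

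The members and gene lists were chosen with earlier results of these data known. Named were, per list, up to 4 genes in a called region by position, the region with the most evidence (mean times the square root of its probes) of each tumor, and the 3 highest and 3 lowest bins of each group; genes named beyond these were chosen after their values were seen. The genes of 2 bins are not reported here. Gene names are those of the files; older ones were matched through RefSeq (GRCm38.p6). Alternatives tried included background correction by normexp (offset 50), no centring, centring on the mode or on the other autosomes, only probes well above background, outlier spots kept, no start bound, means, a call score of 5, 8 or 10, a ratio filter of 0.25 or 0.6, at least 5 probes per region, equal weights, 5 Mb bins, slide, sex or number in the model, each tumor left out, and, added after seeing the data, the removal of 12 probes.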

Additional observations from a re-analysis of the deposited data

Results flagged for a closer look

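In 9 of 50 groups of 6 values, the gap of 1 tumor to the next, as a share of the range of its group, was above Dixon's 95% critical value. These 9 belong to 3 stretches that were delimited because that tumor stood apart there, and they overlap in their probes. The rate of about 1 in 20 that chance gives does not apply to them, and they are a description. Their causes were not tested. Over the amplicon Spon1M had a median of 3.10, with the other spontaneous tumors between -0.09 and 0.38, and in the bins from 40 and 41 Mb it had 2.93 and 3.09. Over the gain of PHx3M this tumor had a median of 0.83, with the other post-PHx tumors between -0.08 and 0.04, and in the bins from 15, 16 and 17 Mb it had 1.02, 0.80 and 0.87. At the end of the chromosome PHx1M had a median of 0.21 over its last 50 probes, with the other post-PHx tumors between -0.08 and 0.0054, and 0.23 over the 46 from Zfp386 on, with the others between -0.08 and -0.0016.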

How the results depend on the processing

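Of 231 recomputed values, 214 stayed within the spread between replicates of their group or within 1.5 times their count, and the cause of the other changes was not tested. Some medians close to 0 changed sign within that spread: PHx1M with the mode, the mean, outlier spots kept or no start bound, and Spon3F, which was 0.01 with no centring. No bin of the chromosome and no bin of the genome passed the threshold in any of 22 other fits. With slide as a block the median difference of the bins was 0.19 in place of -0.09, and it rests on the tumors of slide 2 alone. In that fit 2 bins (32 of all 2137) had an unadjusted p under 0.05, 0 of the 2 lower in post-PHx tumors. With sex in the model 22 had (259 of 2137), all 22 lower in post-PHx tumors. The medians of the 4 shifted tumors kept their sign throughout. The spread of the spontaneous medians is far wider, so moves of like size or larger stayed within it, such as -0.09 in Spon3F with the mean, -0.39 in Spon5F with the mode and 0.41 in Spon4F with normexp correction. Moves past the narrower post-PHx spread were these: normexp correction gave -0.0153 in PHx1M, -0.0217 in PHx2F and -0.0290 in PHx6F, no centring -0.0368 in PHx3M and -0.0341 in PHx4M, centring on the mode 0.0045 in PHx3M and 0.0148 in PHx4M, and the mean 0.0012 in PHx3M and -0.0291 in PHx6F. Spontaneous tumors with a gain numbered 2 after normexp correction and at a score threshold of 5 (Spon2M was added) and 3 at a filter of 0.25. Those with a loss numbered 1 at a filter of 0.6 (Spon3F), with at least 5 probes (Spon5F) and without the 12 shifted probes, a choice made after seeing the data (Spon5F). The difference of group means was 0.19 on slide 2 alone and -0.30 within males, where only 2 tumors were spontaneous. Leaving out 1 tumor at a time gave -0.19 to -0.05. Post-PHx and spontaneous tumors share the numbers 1 to 6, but these do not pair them: the correlation of same-numbered tumors over all bins was -0.13 to 0.39. With a replicate block the difference was -0.10 and 0 bins passed. Shifts under 0.25 were not called, and regions shorter than the probe spacing cannot be seen.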

Other observations

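Single probes far from their neighbours were frequent on 3 of the 4 arrays of slide 3. A member was counted when it lay more than 1 from the median of its 10 neighbours on each side. There were 47 such probes below their neighbours in Spon3F, 14 below and 2 above in Spon1M, and 1 below and 18 above in Spon2M, while Spon4F had 1 below. On the other slides PHx2F had 5 below and 3 above, PHx1M and PHx4M each had 1 below and 2 above, PHx3M had 1 above, Spon5F had 1 below, and PHx5M, PHx6F and Spon6F had 0. The same 12 probes were low in Spon1M and Spon3F and high in Spon2M, and none of the 12 was past 1 in any of the other 9 tumors. They include probes of Rps7, a ribosomal protein, of Atxn7l1, of Gsc, of Arf6, of Akt1 and of Jag2. The Atxn7l1 probe stood at -2.49 in Spon1M, 3.27 in Spon2M, -3.07 in Spon3F and 0.53 in Spon4F. Over the 12 probes the red signal was low in Spon1M (-1.45) and Spon3F (-2.14), the green signal was low in Spon2M (-1.61), and both were low in Spon4F (-1.49 and -1.86). The gene means of Akt1, Arf6 and Jag2 in these tumors rest on them, and the cause was not tested.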
